A study of Mus musculus with 6 samples.

Results

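The genes described here mark lymphoid cells in the liver: 19 genes of the B lineage, from the earliest precursors to surface proteins of mature B cells, 11 genes of T cells and 8 genes of natural killer (NK) cells and cytotoxic granules. Members were taken by name, and a member counted as measured where a probe set (a group of array probes read as 1 value) was annotated to that gene and no other. This held for 35 of the 38 genes (18 B, 10 T and 7 NK) among 12393 genes measured in all. Vpreb2, Lck and Klrb1c had no such probe set and entered no comparison of the groups, though their upstream sequences were searched for motifs.

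RNA came from livers of mice at postnatal day 9, with 3 Affymetrix arrays labelled wild type and 3 labelled transgenic. The arrays are titled biological replicates, and whether animals were pooled is not given in the sources used here. Transgenic mice carried a conditional allele for overexpression of the transcription factor TFEB (gene Tfeb, Tcfeb in the labels) together with Cre recombinase under the albumin promoter, a promoter used to direct Cre to hepatocytes. The labels do not say whether wild-type mice carried Cre or the conditional allele alone, and they mention neither cell sorting nor perfusion. The comparison asked which lymphoid transcripts differed between livers with and without the transgene. Values are log2 expression. A difference is the transgenic mean less the wild-type mean, given with its standard error (SE) from limma, and a gene passed the test at an adjusted p under 0.05. In bulk liver RNA, fewer lymphoid cells and less RNA per cell cannot be told apart.

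In the mouse, the liver is the main site of blood formation before birth and still holds blood precursors in the first weeks of life. A B cell precursor joins immunoglobulin gene segments with the RAG recombinase and then tests its new heavy chain in a pre-B receptor, in which the surrogate light chain proteins encoded by the Vpreb and Igll1 genes stand in for a true light chain. T cell precursors mature in the thymus, and NK cells, which kill with perforin and granzymes, are abundant among lymphocytes of the liver.

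Array-wide values set the scale for what follows. Of 12393 genes, 20.4% were lower and 19.9% higher in transgenic liver, and the median difference was -0.04. The 14 probe sets for the bacterial hybridisation controls bioB, bioC and bioD all read lower in transgenic liver, without overlap (median difference -0.37). Several probe sets read the same control, so they are not 14 separate controls. With arrays scaled to those controls the median of all genes moved to 0.33 and the calls from 2523 lower and 2467 higher to 651 lower and 7010 higher, so directions below hold on the deposited scale unless both are given. Tfeb, with 1 probe set, read 6.91, 6.63 and 6.58 in wild type and 6.52, 6.61 and 6.36 in transgenic liver (difference -0.21, SE 0.11, adjusted p = 0.168), and whether that probe set can see the transgene is not given in the sources used here. Xist and Eif2s3y gave a male pattern in transgenic replicate 1 and a female pattern in the other 5 arrays. Of 7 measured hepatocyte markers, 0 were among the dimmest 40% of genes, with a list mean of 13.40 to 13.43 on wild-type and 12.43 to 12.60 on transgenic arrays. The list median was -0.19, with Alb at 0.00 and Ttr at -0.03 (both named after their values were seen), and Tdo2 (-3.58), Hpd (-1.09) and F9 (-1.07) held the largest differences. Alb was the brightest of all genes and 99.99% of genes were dimmer than Ttr. Whether readings that bright can show a change was not tested. By contrast, 27 of the 35 lymphoid members were among the dimmest 40%, where the signal over background is unknown, the median difference was -0.13 and 20.5% of genes were called lower. Of the 4957 genes in that dimmest part, 345 were called higher and 3680 had a difference below 0.

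Wild-type replicate 1 stood apart from the other 2 wild-type arrays in B, NK and several other blood cell lists. Its level lay below the mean of replicates 2 and 3 for 15 of 18 B genes (median gap -0.45), 8 of 10 T genes (-0.06) and 5 of 7 NK genes (-0.23), against a median gap of 0.02 over all genes. Lists of other blood cells showed it too, with a median gap of -0.41 for 16 pan-leukocyte genes and -1.02 for 12 granulocyte genes, and every gene of both lists lower. The gap was -0.31 for macrophage genes, but -0.05 for dendritic, -0.08 for erythroid and 0.06 for blood progenitor genes. Its part in the results was not tested, and counts are also given without that array.

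B lineage genes were lower in transgenic liver. Of 18 measured, 16 passed the test downward and 0 upward (0 upward also at an unadjusted p under 0.05, 18 downward), against 20.4% of all genes called lower. Their median difference was -0.85, and 8 fell at least 2-fold, as did 2.65% of all genes. In 15 of the 18 genes every transgenic array read below every wild-type array, a pattern seen for 28.1% of all genes. Without wild-type replicate 1 the number lower was 17 and the median -1.14, and without any 1 of the other arrays it was 14 or 15. Scaled to the bacterial controls, 8 genes stayed lower, 0 became higher and the median was -0.47.

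**Figure D1:**
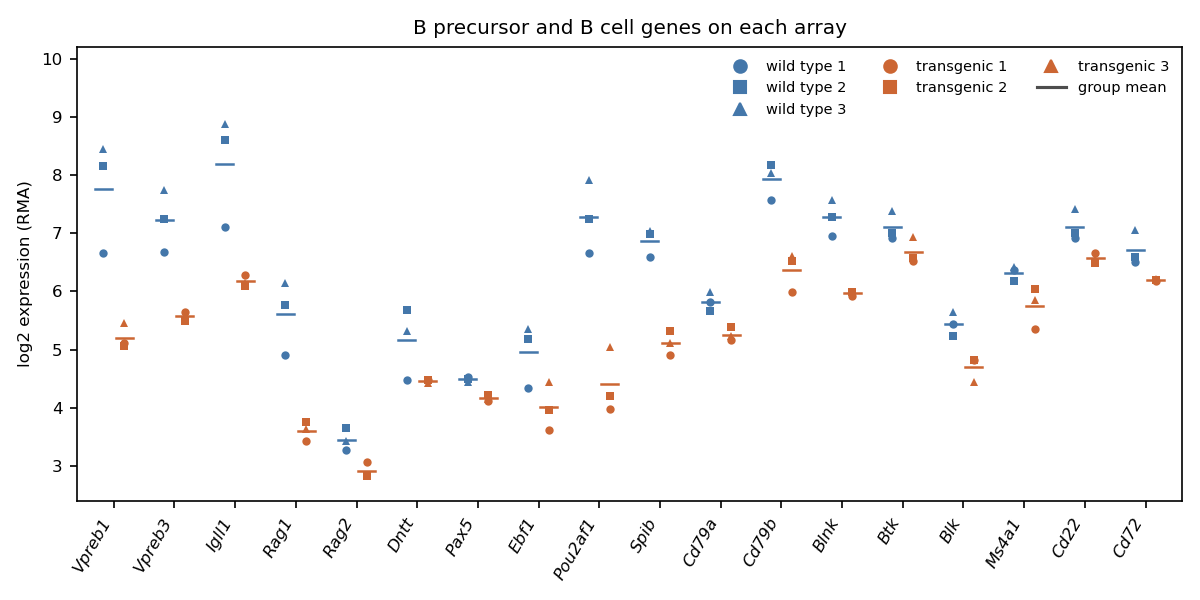
Deposited log2 expression (vertical axis) of the 18 measured B lineage genes on the 3 wild-type (blue) and 3 transgenic (orange) arrays, with the marker shape giving the replicate and bars the group means. The groups are farthest apart for Pou2af1, Vpreb1, Igll1 and Rag1, wild-type replicate 1 (blue circles) is the lowest wild-type array for 14 genes, and the groups overlap for Dntt, Ebf1 and Btk; levels of different genes are not comparable on an array.

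The pre-B receptor genes are shown by the 250 bases before their annotated starts, together with those of Rag1 and of the granzyme genes described below, because these 6 genes carry some of the largest falls. The sequences are from RefSeq on build GRCm38.p6, in 5′ to 3′ order of the gene's strand and upstream of the first transcribed base. Capitals mark letters of 4 motifs found by search: the EBF core CCCNNGGG, the octamer ATGCAAAT, the E-box CAGGTG and the RUNX letters TGTGGT or TGCGGT, each on either strand. Windows lie at chr16:16869256-16869505, minus strand (Vpreb1), chr16:16863986-16864235, minus strand (Igll1), chr10:75948050-75948299, plus strand (Vpreb3), chr2:101649533-101649782, minus strand (Rag1), chr13:113100982-113101231, minus strand (Gzma) and chr14:56262335-56262584, minus strand (Gzmb).
Vpreb1: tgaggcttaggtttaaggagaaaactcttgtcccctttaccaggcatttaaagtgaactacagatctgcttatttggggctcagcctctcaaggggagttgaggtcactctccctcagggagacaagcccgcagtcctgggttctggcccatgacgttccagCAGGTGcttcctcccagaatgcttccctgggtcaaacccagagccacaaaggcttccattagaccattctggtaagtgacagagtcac
Igll1: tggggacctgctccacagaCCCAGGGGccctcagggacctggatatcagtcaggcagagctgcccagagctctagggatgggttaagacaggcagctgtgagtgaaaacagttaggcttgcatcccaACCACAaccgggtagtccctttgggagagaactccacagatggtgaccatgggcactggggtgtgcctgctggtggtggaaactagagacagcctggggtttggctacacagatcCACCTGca
Vpreb3: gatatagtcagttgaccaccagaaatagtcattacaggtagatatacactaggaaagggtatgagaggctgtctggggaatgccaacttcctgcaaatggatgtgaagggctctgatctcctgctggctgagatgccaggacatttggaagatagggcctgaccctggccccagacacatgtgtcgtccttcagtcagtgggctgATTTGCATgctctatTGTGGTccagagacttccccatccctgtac
Rag1: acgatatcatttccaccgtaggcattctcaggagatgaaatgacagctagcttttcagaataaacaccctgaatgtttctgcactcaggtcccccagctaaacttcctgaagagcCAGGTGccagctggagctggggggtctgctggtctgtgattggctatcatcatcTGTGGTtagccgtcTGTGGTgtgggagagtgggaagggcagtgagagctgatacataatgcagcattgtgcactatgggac
Gzma: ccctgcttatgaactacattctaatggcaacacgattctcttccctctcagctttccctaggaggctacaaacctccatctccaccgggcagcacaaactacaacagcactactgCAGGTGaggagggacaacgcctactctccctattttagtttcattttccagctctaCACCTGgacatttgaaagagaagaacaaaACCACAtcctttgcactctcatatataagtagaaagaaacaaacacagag
Gzmb: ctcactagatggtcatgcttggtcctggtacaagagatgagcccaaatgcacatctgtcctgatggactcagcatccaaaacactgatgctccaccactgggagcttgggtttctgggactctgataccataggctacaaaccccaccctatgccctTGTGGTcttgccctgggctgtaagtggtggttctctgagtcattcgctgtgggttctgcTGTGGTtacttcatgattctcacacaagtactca

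A window was found for 30 of the 38 members (16 B, 7 T and 7 NK), counting a gene once if any of its windows held the letters. Vpreb2, Lck and Klrb1c are among them. The windows of Vpreb1 and Vpreb2 share 104 of 106 aligned bases, so their shared E-box, ETS and PU.1 letters count for both genes. The E-box CAGGTG, bound by E proteins such as E2A, was present for 14 of them (46.7%), against 19.4% of 27025 genes with a window. RUNX letters were present for 11 (36.7% against 20.9%), the EBF core for 5 (16.7% against 13.4%) and the octamer, bound by OCT factors with the Pou2af1 protein, for 2 (6.67% against 1.81%). The octamer genes were Vpreb3 and Blnk. Other searches gave the ETS letters AGGAAG for 16 (53.3% against 32.3%), the PU.1 letters GAGGAA for 13 (43.3% against 25.9%), the Ikaros letters TGGGAA for 13 (43.3% against 24.1%) and the MYB letters AACNG for 23 (76.7% against 76.8%). The T-box letters AGGTGTGA stood only before Nkg7, 1 of the 30 genes (3.33% against 1.3%). The CLEAR letters CACGTGAC, the element that TFEB is known to bind, were found before 0 of the 30 genes and before 2.11% of all genes with a window. ETS, PU.1 and Ikaros letters can overlap one another, and a match is a description of the letters only.

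Vpreb1 encodes a surrogate light chain protein of the pre-B receptor. Its wild-type arrays read 6.66, 8.15 and 8.45 and its transgenic arrays 5.11, 5.06 and 5.45, so that even the low wild-type replicate 1 lay above every transgenic array. Vpreb1 fell by 2.55 (SE 0.42, adjusted p = 0.0025), 5.84-fold. Igll1, the partner that completes the surrogate light chain, lies beside Vpreb1 on chromosome 16 with starts 5.3 kb apart. It read 7.11, 8.60 and 8.88 in wild type and 6.28, 6.09 and 6.15 in transgenic liver, without overlap, and fell by 2.03 (SE 0.41, adjusted p = 0.00623). That probe set carries the suffix for possible cross-hybridisation, and the other probe set for Igll1 read 4.60 to 4.71 in wild type and 4.59 to 4.80 in transgenic liver (difference 0.03, adjusted p = 0.786 over all probe sets). Vpreb3, a related protein that binds immunoglobulin chains inside B cells, read 6.67, 7.25 and 7.75 against 5.64, 5.49 and 5.58, fell by 1.65 (SE 0.23, adjusted p = 0.00127) and did not overlap between groups. Both Vpreb1 and Vpreb3 passed under each of the 16 alternatives in which they were tested.

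The recombination genes showed the same direction at dimmer readings. Rag1, the catalytic subunit of the recombinase, read 4.92, 5.77 and 6.15 in wild type and 3.44, 3.75 and 3.63 in transgenic liver and fell by 2.00 (SE 0.28, adjusted p = 0.00116). Rag2, its partner subunit with a start 24.8 kb away on chromosome 2, read 3.28, 3.66 and 3.43 against 3.07, 2.83 and 2.83. Its fall of 0.55 (SE 0.12, adjusted p = 0.0082) was measured near the floor of the array, with 2.04% of genes dimmer, and did not pass after bacterial-control scaling (-0.17, adjusted p = 0.29). Dntt, which encodes the polymerase that adds untemplated bases at the joints, read 4.49, 5.67 and 5.32 against 4.49, 4.48 and 4.43. Wild-type replicate 1 lay at the transgenic level there, and the difference of -0.70 (SE 0.26, adjusted p = 0.0684) did not pass. Without that array it was -1.03 and passed (adjusted p = 0.000675), and both of the other Dntt probe sets were called lower.

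Transcription factor genes of the B lineage all passed downward, 4 of 4, against 20.4% of all genes called lower. All 4 were among the dimmest 40% of genes, where 20.5% were called lower. Pou2af1, which encodes a coactivator of octamer-binding factors, had the largest difference of all members. It read 6.66, 7.25 and 7.92 in wild type and 3.98, 4.20 and 5.05 in transgenic liver, and fell by 2.86 (SE 0.36, adjusted p = 0.00068), 7.27-fold. Spib, an ETS family factor of B cells and plasmacytoid dendritic cells, read 6.59, 6.98 and 7.04 against 4.92, 5.32 and 5.12, without overlap, and fell by 1.75 (SE 0.15, adjusted p = 9.68e-05). Ebf1, which starts the B cell programme, read 4.34, 5.19 and 5.35 against 3.62, 3.97 and 4.45, so the groups overlapped at wild-type replicate 1 and transgenic replicate 3. Its difference of -0.95 (SE 0.29, adjusted p = 0.0351) lost its call without wild-type replicate 2 (0.106) or 3 (0.101), without transgenic replicate 1 (0.103) or 2 (0.0882), and after bacterial-control scaling (0.0516); normalizing again by quantiles (0.0632) or cyclic loess (0.0609) and the trend and robust options (0.0639) also ended it. The other 2 Ebf1 probe sets were both called lower, by 1.05 and 0.74 on the log2 scale. Pax5, which holds cells to the B fate, read 4.53, 4.49 and 4.45 against 4.12, 4.22 and 4.15, a difference of -0.33 (SE 0.07, adjusted p = 0.00645) that became 0.05 (0.693) after bacterial-control scaling.

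Genes of the B cell receptor and its signalling were called lower for 4 of 5 members, against 20.4% of all genes. Cd79b, which encodes a signalling chain of the receptor, read 7.57, 8.18 and 8.03 in wild type and 5.99, 6.52 and 6.61 in transgenic liver and fell by 1.55 (SE 0.20, adjusted p = 0.000838). Its partner chain gene Cd79a read 5.81, 5.67 and 5.99 against 5.16, 5.39 and 5.23 and fell by 0.56 (SE 0.10, adjusted p = 0.00401). The adaptor gene Blnk, which links the receptor to its kinases, read 6.96, 7.29 and 7.58 against 5.92, 5.99 and 5.99 and fell by 1.31 (SE 0.14, adjusted p = 0.000359). The Src family kinase gene Blk fell by 0.75 (SE 0.14), from 5.44 ± 0.21 to 4.69 ± 0.22 (SD, n = 3 arrays). After bacterial-control scaling neither Cd79a (-0.19, adjusted p = 0.149) nor Blk (-0.37, adjusted p = 0.0541) passed. Btk, a kinase also expressed in myeloid cells, read 6.92, 7.01 and 7.38 against 6.52, 6.57 and 6.93, with overlap. Its difference of -0.43 (SE 0.15, 95% interval -0.78 to -0.08, adjusted p = 0.0555) did not pass here but did in 8 alternatives, among them leaving out wild-type replicate 1 (0.0398) or transgenic replicate 3 (0.0286) and the replicate block (0.00851).

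The 3 surface proteins of later B cells differed less. Ms4a1 (CD20) fell by 0.58 (SE 0.17, adjusted p = 0.0299), from 6.37, 6.17 and 6.43 to 5.35, 6.05 and 5.85. Cd22, an inhibitory lectin, fell by 0.54 (SE 0.13, adjusted p = 0.0141), and Cd72, which B cells share with some myeloid cells, fell by 0.52 (SE 0.14, adjusted p = 0.0195). No transgenic array overlapped the wild-type range in these 3 genes. The adjusted p of Ms4a1 rose to 0.0659 and 0.0833 when wild-type replicates 1 and 3 were left out, to 0.0577 when transgenic replicate 3 was, and to 0.0735 with its 2 probe sets averaged. The Cd72 call was lost without transgenic replicate 1 (adjusted p = 0.0539), 2 (0.0549) or 3 (0.0525). Scaled to the bacterial controls, Ms4a1, Cd22 and Cd72 did not pass (adjusted p = 0.227, 0.285 and 0.346). By role, median differences were -1.83 for pre-B receptor and recombination genes (6 measured), -1.35 for transcription factors, -0.75 for receptor signalling and -0.54 for surface proteins, and differences between roles were not tested.

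T cell genes differed less and not all in one direction, and their median of -0.27 on the deposited scale became 0.10 once arrays were scaled to the bacterial controls. Of 10 measured, 5 were lower, 1 was higher and 4 did not pass, against 20.4% of all genes called lower and 19.9% higher. Among the dimmest 40% of genes, which hold 9 of these 10, 20.5% were called lower. Only Cd3g reached 2-fold. After bacterial-control scaling 1 was lower (Cd3g) and 2 were higher (Thy1 and Cd8b1). Without wild-type replicate 1, 6 were lower.

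**Figure D2:**
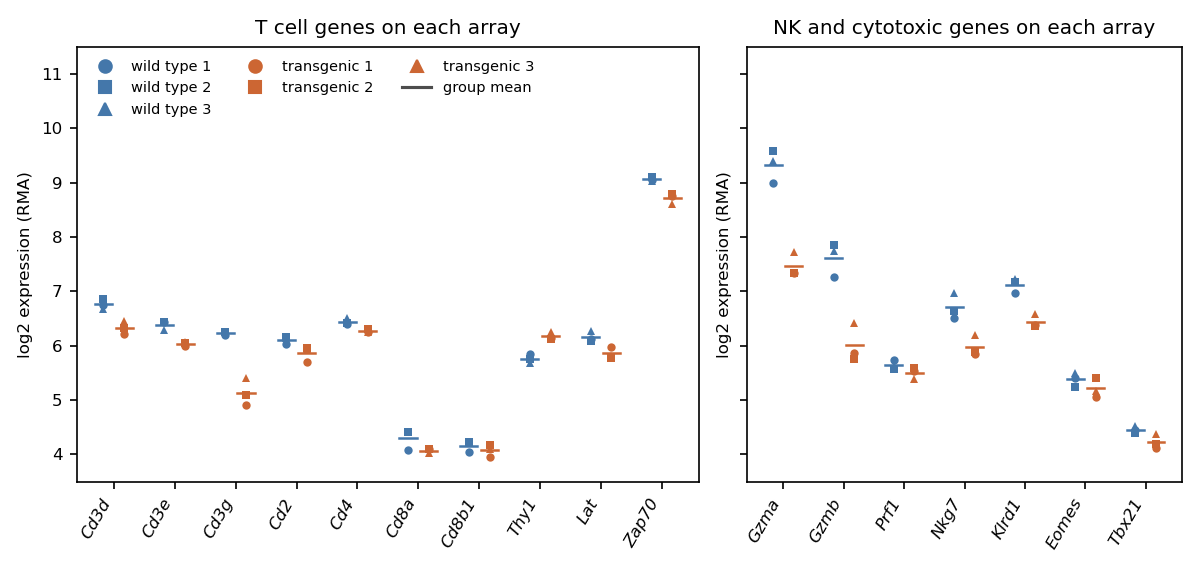
Deposited log2 expression (vertical axis) of the 10 measured T cell genes and the 7 measured NK and cytotoxic genes on the 3 wild-type (blue) and 3 transgenic (orange) arrays, with marker shapes for replicates and bars for group means. Gaps are wide for Cd3g, Gzma and Gzmb and narrow elsewhere, and Thy1 is the gene with higher transgenic values; scaled to the bacterial controls, the T genes other than Cd3g and Cd3d, and Prf1, Eomes and Tbx21, all read above 0.

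The genes of the CD3 chains, which carry the signal of the T cell receptor, lie together on chromosome 9, with starts of Cd3g and Cd3d 1.4 kb apart. Cd3g read 6.19, 6.26 and 6.26 in wild type and 4.91, 5.09 and 5.40 in transgenic liver and fell by 1.10 (SE 0.12, adjusted p = 0.000352), 2.15-fold. Cd3d read 6.74, 6.85 and 6.68 against 6.22, 6.33 and 6.45, a difference of -0.43 (SE 0.08, adjusted p = 0.0057). Cd3e read 6.44, 6.43 and 6.29 against 5.997, 6.05 and 6.06, a difference of -0.35 (SE 0.07, adjusted p = 0.00646). All 3 chains were without overlap, but scaled to the bacterial controls Cd3d no longer passed (-0.06, adjusted p = 0.621) and Cd3e changed sign (0.02, adjusted p = 0.857).

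Among receptor signalling genes, the kinase gene Zap70, which NK cells also express, read 9.05, 9.11 and 9.04 against 8.75, 8.79 and 8.62. Its difference was -0.35 (SE 0.07, adjusted p = 0.00745), and scaled to the bacterial controls it read 0.03 (adjusted p = 0.847). The other Zap70 probe set was also called lower but read far dimmer, with means of 5.68 in wild type and 5.32 in transgenic liver. Why the levels of these probe sets differ was not tested. Lat, the adaptor phosphorylated by that kinase, differed by -0.30 (SE 0.08, adjusted p = 0.0257), or 0.07 (0.596) with that scaling. The Lat call was also lost without wild-type replicate 3 (adjusted p = 0.0776), either of transgenic replicates 2 (0.0876) and 3 (0.0804), or after cyclic loess (0.0564).

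Coreceptor and surface genes of T cells mostly missed the threshold. Cd4, carried by helper T cells and some myeloid cells, differed by -0.16 (SE 0.07, 95% interval -0.32 to -0.01, adjusted p = 0.0848). Cd8a and Cd8b1, the chains of the coreceptor of killer T cells, differed by -0.23 (-0.46 to 0.01, adjusted p = 0.107) and -0.08 (-0.28 to 0.12, adjusted p = 0.472), at dim readings of 4.30 ± 0.19 and 4.16 ± 0.10 in wild type (SD, n = 3 arrays). Scaled to the bacterial controls, Cd8b1 was called higher (0.29, adjusted p = 0.0243), and without wild-type replicate 1 Cd8a was called lower (-0.34, adjusted p = 0.00938). Cd2, an adhesion receptor of T and NK cells, differed by -0.25 (SE 0.09, adjusted p = 0.0635). After bacterial-control scaling Cd2, Cd4 and Cd8a read 0.13, 0.21 and 0.14, none of them called, while after median centring Cd2 (adjusted p = 0.0355) and Cd4 (0.0383) passed downward. Thy1, a surface protein of T cells that fibroblasts and neurons also carry, went the other way. It read 5.84, 5.76 and 5.69 in wild type and 6.14, 6.12 and 6.26 in transgenic liver, without overlap, and rose by 0.41 (SE 0.07, adjusted p = 0.00399).

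NK and cytotoxic genes were lower for 4 of 7 members and higher for 0 (0 also at an unadjusted p under 0.05). Over all genes, 20.4% were called lower and 19.9% higher. The NK members had a median difference of -0.68. Their number lower was also 4 when wild-type replicate 1 was left out. It was 4 after scaling to the bacterial controls, where the median was -0.31. Gzma, the granzyme A gene, read 8.99, 9.58 and 9.41 in wild type and 7.33, 7.34 and 7.72 in transgenic liver, well apart, and fell by 1.86 (SE 0.17, adjusted p = 0.000145), 3.63-fold. Gzmb, which encodes granzyme B, the protease that starts death of the target cell, read 7.27, 7.85 and 7.74 against 5.87, 5.76 and 6.43 and fell by 1.60 (SE 0.21, adjusted p = 0.000778). The granule membrane gene Nkg7 read 6.52, 6.64 and 6.97 against 5.84, 5.89 and 6.20 and fell by 0.73 (SE 0.14, adjusted p = 0.00502). Klrd1 (CD94), a lectin receptor of NK cells, read 6.97, 7.18 and 7.22 against 6.39, 6.35 and 6.58 and fell by 0.68 (SE 0.10, adjusted p = 0.00117). These 4 genes were called lower under all 17 alternatives, or the 16 in which they were tested for Nkg7.

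Perforin and the NK transcription factors did not pass on the deposited scale. Prf1, the pore-forming protein gene, read 5.74, 5.57 and 5.62 against 5.53, 5.59 and 5.38 (difference -0.14, 95% interval -0.34 to 0.05, adjusted p = 0.201). Eomes differed by -0.17 (-0.42 to 0.08, adjusted p = 0.251) and Tbx21, which encodes T-bet, by -0.22 (-0.41 to -0.02, adjusted p = 0.0768). Tbx21 passed without transgenic replicate 3 (-0.29, adjusted p = 0.0363) and after median centring (-0.26, adjusted p = 0.0402). All 3 were among the dimmest 40% of genes, with 27.3%, 24.3% and 14.2% of genes dimmer, so these intervals cover readings whose signal over background is unknown. After bacterial-control scaling Prf1, Eomes and Tbx21 read 0.23, 0.21 and 0.16, none of them called.

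**Figure D3:**
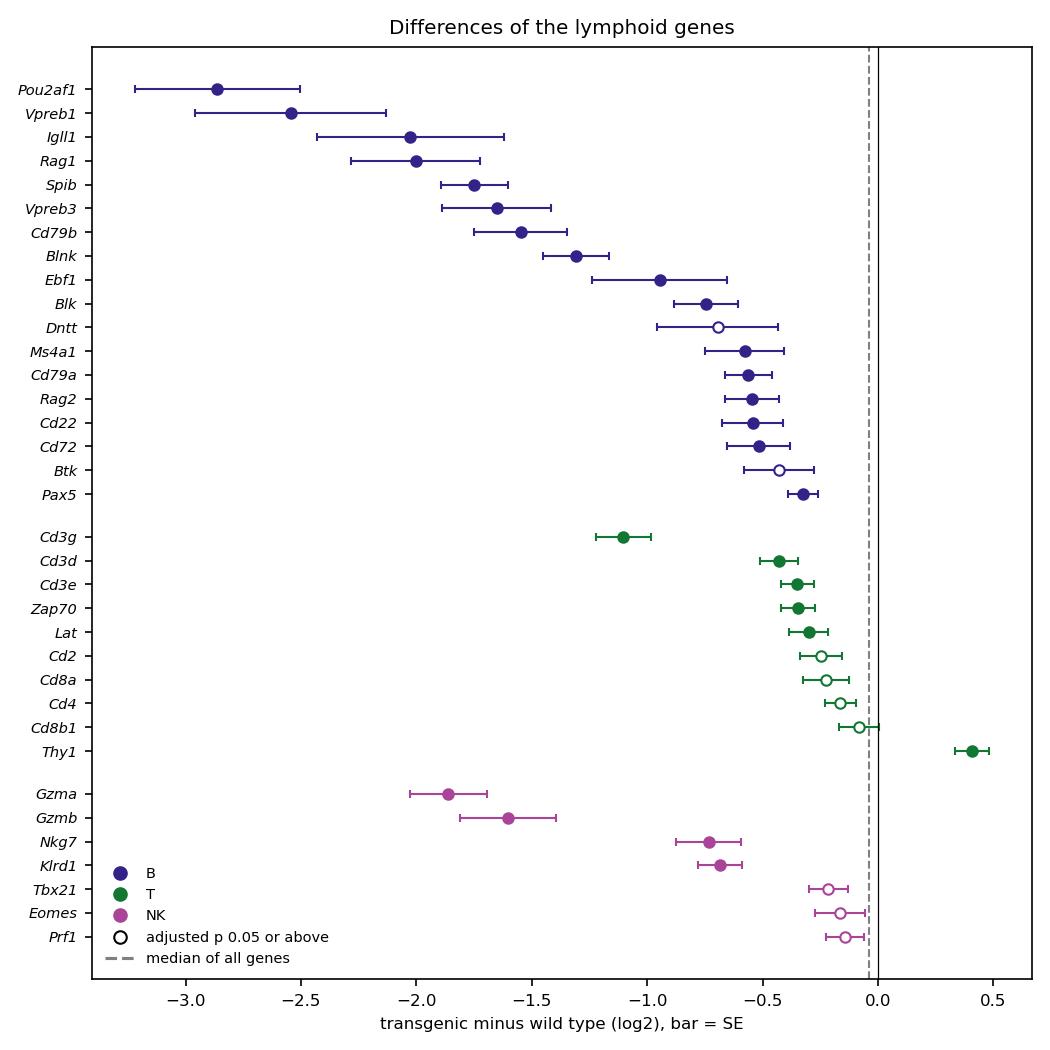
Differences between transgenic and wild-type means (horizontal axis, log2) for the 35 measured genes, with bars for the SE of the limma fit, filled points for an adjusted p under 0.05 and a dashed line at the median of all genes (-0.04). B genes spread from -2.86 to -0.33, T genes from -1.10 to 0.41 and NK genes from -1.86 to -0.14 on the deposited scale; scaled to the bacterial controls the T median turns positive (0.10).

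Of the 35 members, 26 were called in either direction, against 40.3% of all genes, and 34 had a difference below 0, against 55.2%. Among the dimmest 40% of genes, which hold 27 of the members, 3680 of 4957 had a difference below 0 and 345 were called higher. Thy1 was the 1 member with every transgenic array above every wild-type array, as in 25.6% of all genes. Set side by side, the share of genes called lower was 16 of 18 for B, 5 of 10 for T and 4 of 7 for NK, each above the 20.4% over all genes, and differences between these groups were not tested. Relative to each gene's wild-type mean, the median over B genes was -1.15, -0.84 and -0.87 on transgenic replicates 1, 2 and 3. The corresponding medians were -0.26, -0.24 and -0.29 for T genes and -0.74, -0.77 and -0.51 for NK genes. The wild-type spread differed too, with medians over B genes of -0.30, 0.02 and 0.29 on wild-type replicates 1, 2 and 3, against -0.04, 0.04 and 0.03 for T genes. The median SD of a gene among wild-type arrays was 0.30 for B, 0.08 for T and 0.13 for NK genes.

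**Figure D4:**
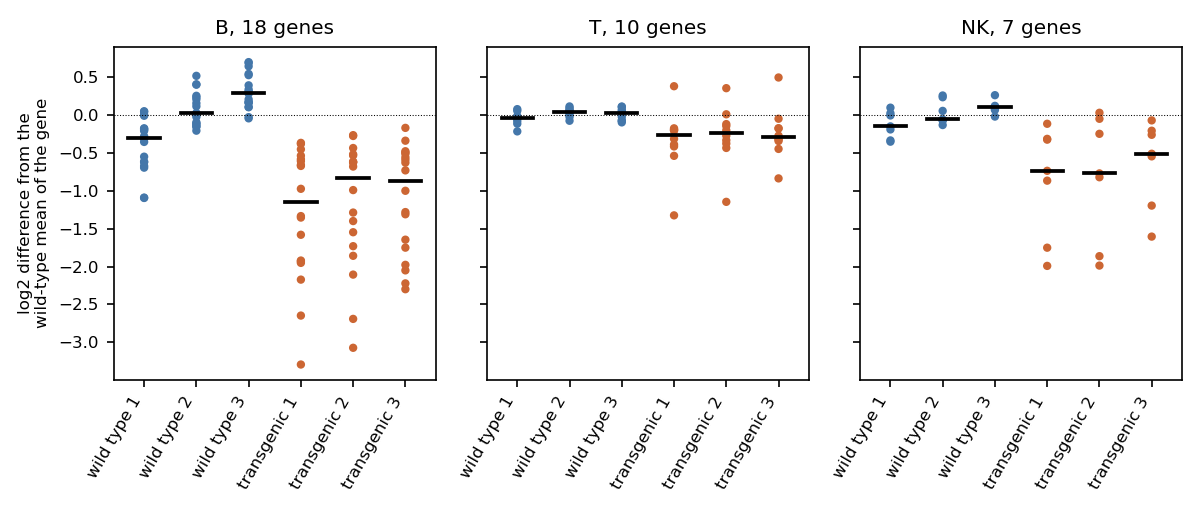
Deviation of each gene from its own wild-type mean (vertical axis, log2) on each array, 1 point per gene, with black bars at the median over the 18 B, 10 T and 7 NK genes. All 3 transgenic arrays have medians below all 3 wild-type arrays in each panel on the deposited scale, and the wild-type arrays spread most for B genes (-0.30 to 0.29); scaled to the bacterial controls the T median difference turns positive (0.10).

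Other genes of the same cell types were read from lists that did not contain the members. Over all genes, 20.4% were called lower and 19.9% higher. Of 19 further B lineage genes, 10 were lower and 2 higher, with a median of -0.35, or 0.02 scaled to the bacterial controls, when 3 were lower and 5 higher. Fcrla, an Fc receptor-like protein of B cells, fell by 1.27 (SE 0.12) and Ighm, the heavy chain constant gene, fell by 1.05 (SE 0.27, adjusted p = 0.0174). The Ighm difference was -0.34 (adjusted p = 0.00506) with its probe sets averaged, and its call was lost with the trend and robust options (adjusted p = 0.0532). Ly6d, which marks B-committed precursors and is also made by epithelia, rose by 1.77 (SE 0.21, adjusted p = 0.000564), opposite to the members. The number lower was 6 when any 1 of wild-type replicates 2 and 3 and transgenic replicate 3 was left out. Among 17 further T genes 5 were lower and 1 higher (median -0.22, or 0.16 with that scaling, when 0 were lower and 5 higher). Of these T genes 16 were among the dimmest 40%, where 20.5% of genes were called lower. In this T list Cd7 fell by 0.57 and Ptcra, the pre-T receptor chain, fell by 0.38, while Gata3, also expressed in epithelia, rose by 0.57 (SE 0.12). With that scaling neither Cd7 (-0.20, adjusted p = 0.142) nor Ptcra (-0.00, adjusted p = 0.975) passed. The number lower was 3 without transgenic replicate 1 or wild-type replicate 2, and 2 without the third replicate of either group. Of 21 further NK genes 11 were lower and 0 higher (0 also at an unadjusted p under 0.05), with a median of -0.33, or 0.04 with that scaling, when 1 was lower and 3 higher. Ccl5, a chemokine of NK and T cells, fell by 1.58 (SE 0.16, adjusted p = 0.000215), Nfil3, a factor needed for NK development, fell by 0.56, and Cst7, a cystatin of cytotoxic granules, fell by 0.54. With that scaling neither Nfil3 (-0.19, adjusted p = 0.0931) nor Cst7 (-0.17, adjusted p = 0.277) passed.

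Of 7 genes shared among lymphoid cells 2 were lower and 0 higher (0 also at an unadjusted p under 0.05), near the 20.4% of all genes called lower, with a median of -0.15, or 0.22 after bacterial-control scaling, when 1 was lower and 2 higher. Il7r, the receptor through which B and T precursors receive interleukin 7, read 6.08, 6.52 and 6.45 in wild type and 4.63, 5.27 and 5.26 in transgenic liver and fell by 1.29 (SE 0.19, adjusted p = 0.00162). Satb1, a chromatin organiser of lymphocytes, fell by 0.42, a call lost with that scaling (-0.05, adjusted p = 0.712). Myb, a factor of blood progenitors and early B cells, read 7.37, 8.30 and 8.60 against 5.70, 5.87 and 6.23 and fell by 2.16 (SE 0.30, adjusted p = 0.00107). In the same list of 6 progenitor genes Cd34, also an endothelial gene, rose by 1.42 (SE 0.09) and 4 did not pass. Of 7 factors that support lymphocytes, 4 were lower and 0 higher (0 also at an unadjusted p under 0.05), or 3 lower and 1 higher after bacterial-control scaling. Il15, the cytokine that keeps NK cells alive, fell by 1.02 (SE 0.09, adjusted p = 0.000167), and Il15ra, which presents it, fell by 0.88. Cxcl12, the chemokine that retains B precursors in their niche, read 11.21, 11.23 and 11.15 against 10.21, 10.14 and 10.35 and fell by 0.96 (SE 0.08, adjusted p = 8.12e-05).

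**Figure D5:**
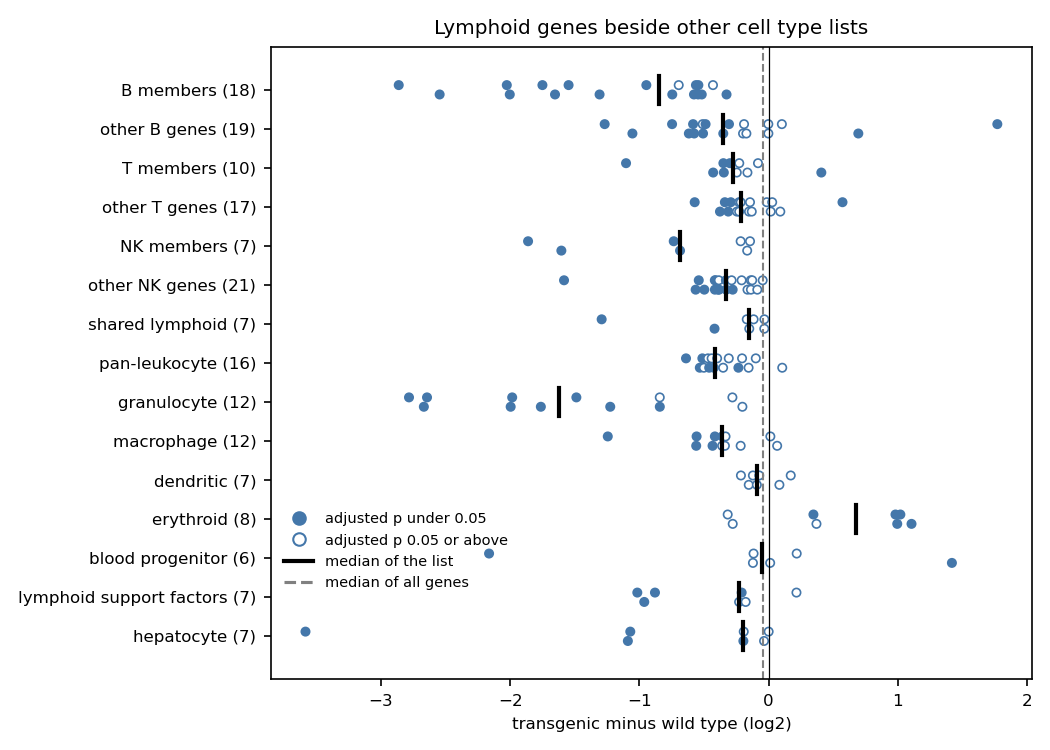
Differences between transgenic and wild-type means (horizontal axis, log2) for the lymphoid members, further genes of the same cells and lists of other cell types, 1 point per gene with the number measured in brackets, filled at an adjusted p under 0.05. Black bars are list medians, from -1.62 for granulocyte genes to 0.68 for erythroid genes on the deposited scale; scaled to the bacterial controls the medians of the other B, other T, T member, other NK, macrophage and several smaller lists turn positive.

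Markers of other blood cells moved beside the lymphoid genes, and their part in the results was not tested. Their counts stand against 20.4% of all genes called lower and 19.9% called higher. Of 16 pan-leukocyte genes 6 were lower and 0 higher (11 and 0 at an unadjusted p under 0.05), with a median of -0.41. Was, Rac2 and Dock2, all regulators of the leukocyte actin skeleton, were lower, with differences of -0.64, -0.53 and -0.51. The calls of Rac2 and Dock2 were lost without any 1 array other than wild-type replicate 1 (adjusted p 0.0647 to 0.139 and 0.0754 to 0.123), and that of Was after bacterial-control scaling (0.0971). The mean over the list was 7.92, 8.21 and 8.39 on wild-type arrays and 7.67 to 7.92 on transgenic arrays. Wild-type replicate 1 thus lay beside the transgenic range for the pan-leukocyte list, while for the B members it read 5.98 against 5.07 to 5.26. It also lay above that range for the NK members (6.48 against 5.74 to 5.98) and granulocyte genes (8.25 against 6.90 to 7.61). The number of pan-leukocyte genes lower was 10 without wild-type replicate 1 and 2 without wild-type replicate 2. It was 3 without transgenic replicate 1, and 1 without any 1 of the remaining 3 arrays. Scaled to the bacterial controls it was 0, with 1 higher.

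Granulocyte genes were lower for 9 of 12 members and higher for 0 (0 also at an unadjusted p under 0.05), with list means of 8.25 to 9.22 on wild-type and 6.90 to 7.61 on transgenic arrays. The shares over all genes, for this and the next lists, were 20.4% lower and 19.9% higher. The granule protein genes Camp, Ngp and Ltf were lower, with differences of -2.78, -2.67 and -2.64. Macrophage genes were lower for 6 of 12 and higher for 0 (0 also at an unadjusted p under 0.05), with list means of 10.18 to 10.50 against 9.79 to 10.16, and after bacterial-control scaling 1 was lower and 2 were higher. Cd163, a scavenger receptor, fell by 1.24 (SE 0.32), Adgre1 fell by 0.56 and Marco also fell by 0.56. All 3 calls were lost without wild-type replicate 2 (adjusted p = 0.0569 for Cd163, 0.106 for Adgre1 and 0.0972 for Marco) or 3 (0.0514, 0.0975 and 0.0999), that of Adgre1 also without transgenic replicate 1 (0.0872) or 2 (0.104), and that of Marco without transgenic replicate 2 (0.106) or 3 (0.0737). Their number was 9 without wild-type replicate 1, 2 without wild-type replicate 2 or 3, 3 without transgenic replicate 2 and 4 without transgenic replicate 1. Of 7 dendritic cell genes 0 were called (0 at an unadjusted p under 0.05), with list means of 6.50 to 6.90 against 6.55 to 6.76, and after bacterial-control scaling 3 were higher. The largest difference there was that of Xcr1, at -0.21 (adjusted p = 0.314). Erythroid genes went the other way, with 5 of 8 higher and 0 lower (0 also at an unadjusted p under 0.05), list means of 7.60 to 7.82 against 8.10 to 8.33, and rises of 1.11 for Hemgn, 1.02 for Rhag and 1.00 for Slc4a1. Of 7 hepatocyte genes 4 were lower, or 3 lower and 2 higher after bacterial-control scaling.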

How the data were processed

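Biotin-labelled cRNA from liver was read on 6 Affymetrix arrays. The authors' deposited table holds log2 expression values for 22690 probe sets; the submitters' processing notes name affy and RMA, a method that corrects background, equalises array distributions and summarises probes. Versions, a test and scan batches were not stated, and detection calls were not used here.

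Sample titles gave the groups. They name biological replicates with no litter or batch, so p-values measure the spread between these samples. By the platform annotation 20380 probe sets name 1 gene, 691 name several, 1555 name no gene and 64 are array controls. Symbols were checked by Entrez identifier against RefSeq (GRCm38.p6): 20351 matched, 29 kept the platform name and 0 changed. For each of 12393 genes the brightest probe set, by its mean over 6 arrays, was used. Groups were compared with limma 3.58.1 (lmFit, eBayes, no covariates) in R 4.3.3, and p-values were adjusted over every gene by Benjamini-Hochberg. With 3 arrays a group, exact permutation allows no p under 0.1, so it was not used. Figures were made with Python 3.11.15 and matplotlib 3.10.9.

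Members, lists and tests were chosen with earlier results of these data known. All 35 measured members are named; of each other list, up to 3 genes past the threshold with the largest difference, or the 1 with the largest where none passed. The named genes exclude no member, and Tfeb, Xist and Eif2s3y served as checks. Promoter motifs were chosen with the genes' values known, and all 10 searched are given.

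Alternatives were the mean of probe sets, every probe set, no probe sets of suffix x or s, no genes of the dimmest 40%, repeated quantile normalization, median centring, cyclic loess, scaling to bacterial controls, eBayes options (trend, robust), weighting of arrays, a replicate block and each array left out. The titles do not say whether replicate numbers pair the arrays. Correlations of deviations between same-numbered arrays were -0.10, -0.02 and 0.06. Differently numbered arrays were not compared, so these values cannot decide whether arrays were paired. On data simulated for transgenic against wild type over 12393 genes, with 200 changed, the fit recovered 53.7%, 91.0% and 98.5% of changes of 0.5, 1 and 2 on the log2 scale, with 8 false calls. The simulated noise was independent for each gene, with no shift shared by the genes of an array, and 4990 genes were called in the data. These figures therefore check the fit and need not hold for this comparison. The number of arrays limits the precision.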

Additional observations from a re-analysis of the deposited data

How the results depend on the processing

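Of 568 comparisons of a member's difference with its value under an alternative, 509 kept both direction and side of the threshold, 26 lost the call, 19 gained one and 14 changed sign. Of 26 members called, 13 kept their call under all alternatives in which they were tested. Scaling to the bacterial controls moved the median of all genes from -0.04 to 0.33, the genes called from 4990 to 7661, the B genes lower from 16 to 8, the T genes lower from 5 to 1 and the T genes higher from 1 to 2. It changed the sign of the T median (0.10) and of Pax5 (0.0463), Cd3e (0.0218), Cd8b1 (0.290), Lat (0.0720) and Zap70 (0.0254), and of genes not called on either scale: Cd2 (0.125), Cd4 (0.208), Cd8a (0.145), Prf1 (0.228), Eomes (0.206), Tbx21 (0.156), Tfeb (0.165) and Xcr1 (0.158). Cd8b1 also turned positive, uncalled, after repeated quantile normalization (0.0413) and cyclic loess (0.0297). Igll1 changed sign (0.0312) without possibly cross-hybridising probe sets, which left only its flat probe set. Without the dimmest 40% of genes fewer members were tested, and 4 of 4 B genes and 1 of 1 T gene (Zap70) were lower, 0 T genes were higher, and 3 of 3 NK genes were lower.

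Leaving out 1 array at a time gave 14 to 17 B genes, 4 to 6 T genes and 4 to 5 NK genes lower, 1 T gene higher each time, and 3780 to 4818 genes called in all. The cause of these shifts was not tested. The replicate block, which pairs arrays by a shared number only, gave 4279 genes called, 17 B, 5 T and 4 NK genes lower and 1 T gene higher. Most members read dimly, and without detection calls the signal over background of those readings is unknown.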

Other observations

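Probe sets annotated to several genes were left out of the comparisons above, and their readings belong to no single gene. The probe set shared by Vpreb1 and Vpreb2 read 5.73, 6.65 and 6.85 in wild type and 5.12, 4.60 and 5.37 in transgenic liver. Every transgenic array there read below every wild-type array, as for 28.1% of all genes. The 2 genes are close copies: where their upstream windows align, 104 of 106 bases are identical, with a run of 91. The probe set shared by Klrb1b and Klrb1c, lectin receptors of NK cells, read 5.97, 6.04 and 5.86 against 5.53, 5.72 and 5.18. A probe set shared by immunoglobulin kappa genes, Igkc among them, read 8.77, 8.55 and 9.30 against 8.48, 7.61 and 8.31, and wild-type replicate 1 was not the lowest wild-type array there. These readings were not tested, and they are values on the deposited scale.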
